A study of Schizosaccharomyces pombe with 28 samples.

Results

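Transcript levels were compared between fission yeast (Schizosaccharomyces pombe) that lacked the gene zfs1 and its wild type (WT) in project 529, the project with the most arrays per strain. The arrays were chosen by title: 5 labelled zfs1∆529, called zfs1-null here, and 5 labelled WT529, together 10 of the 28 arrays of the series. Both strains were grown without treatment in yeast extract medium with supplements (YES) at 30 °C, to mid-log phase at an optical density (OD600) of about 1.0. The design text calls the 5 samples of each strain biological replicates. The labels do not state the mating type, the auxotrophic markers or how zfs1 was deleted. PolyA RNA was purified from total RNA, 25 ng was amplified, and the biotin-labelled product was hybridized to Affymetrix arrays. Projects 488 and 582 repeat the same strain comparison with 3 arrays per strain each, and served here for comparison.

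Zfs1 belongs to the tristetraprolin family of zinc finger proteins. These proteins bind AU-rich elements in the untranslated ends of mRNAs and recruit the machinery that shortens the polyA tail, so that bound mRNAs decay faster. In fission yeast Zfs1 is known for its roles in mating and in cell adhesion, and transcripts that it targets directly are known to rise when it is absent.

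A value is a MAS5 signal, the brightness of a probe set on a linear scale, and changes are given on the log2 scale as zfs1-null minus WT. For each of 2899 S. pombe genes the brightest probe set was used. Linear models were fitted with limma, and a gene was called higher or lower where its p, adjusted by the Benjamini-Hochberg method over all 2899 genes, was below 0.05. A SE belongs to a log2 change and a SD to signals of 5 arrays. Signals of different probe sets depend on their probes, so levels are compared between arrays and not between genes.

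The deleted gene was checked in every sample. The zfs1 signal was 396, 389.6, 413, 389.5 and 424 on the WT arrays and 7.67, 2.92, 5.16, 0.55 and 0.90 on the zfs1-null arrays. All WT values lay above the background of 4.03 to 4.81 signal units, taken per array as the 95th percentile of probe sets for another species. In the zfs1-null strain 2 of the 5 values lay above that background. Measured means were 402 ± 15.4 (SD, n = 5) in WT and 3.44 ± 3.00 (n = 5) in the zfs1-null strain, and with background as the floor zfs1 was at least 81.3-fold lower. Every other measured S. pombe gene lay above background on all 10 arrays. The genes beside zfs1 on chromosome II were not called: the log2 changes were -0.15 for trs31 (adjusted p = 0.075), -0.05 for msp1, 0.09 for SPBC1105.01 and -0.04 for lys4. This depended on the scaling. With array medians set equal, trs31 (-0.21, adjusted p = 0.016) and lys4 (-0.10, adjusted p = 0.048) were called lower. With quantile normalization trs31 was called lower (-0.24, adjusted p = 0.0063) and lys4 was not called.

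Replicate arrays were close to each other. On the log2 scale, the SD of a gene over the 5 arrays had a median of 0.0832 for WT and 0.0716 for zfs1-null arrays. Correlations across genes between arrays of a strain ran from 0.990 to 0.997, and genes are not independent replicates. The first principal component held 71.3% of the variance and separated the strains. Median signals of the S. pombe genes were 897 to 930 in WT and 951 to 965 in the zfs1-null strain, while the 90th percentiles were 2917 to 3024 and 2847 to 2903. The deposited arrays were scaled to a common mean, so these shifts are part of the values compared below.

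Of the 2899 genes, 1223 (42.2%) were called, 746 (25.7%) higher and 477 (16.5%) lower in the zfs1-null strain. Counts from gene lists below are to be read beside these shares. Few changes were large. At least 2-fold, 7 genes rose and 17 fell, zfs1 among them. At 1.5-fold or more, 67 genes (2.31%) rose and 57 (1.97%) fell, and the other 1099 called genes, 89.9% of the calls, changed by less than 1.5-fold. The median size of a called change was 0.24 on the log2 scale, against a median SE of 0.05 over all genes. For 855 genes (29.5%) the 5 values of each strain did not overlap, and 834 of these were called. The split by direction depends on the scaling. With array medians set equal, 491 genes were higher and 739 lower, and with quantile normalization 572 were higher and 534 lower. Of the 1222 called genes other than zfs1, 886 had the same call and sign under all 3 scalings, 455 higher and 431 lower.

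**Figure D1:**
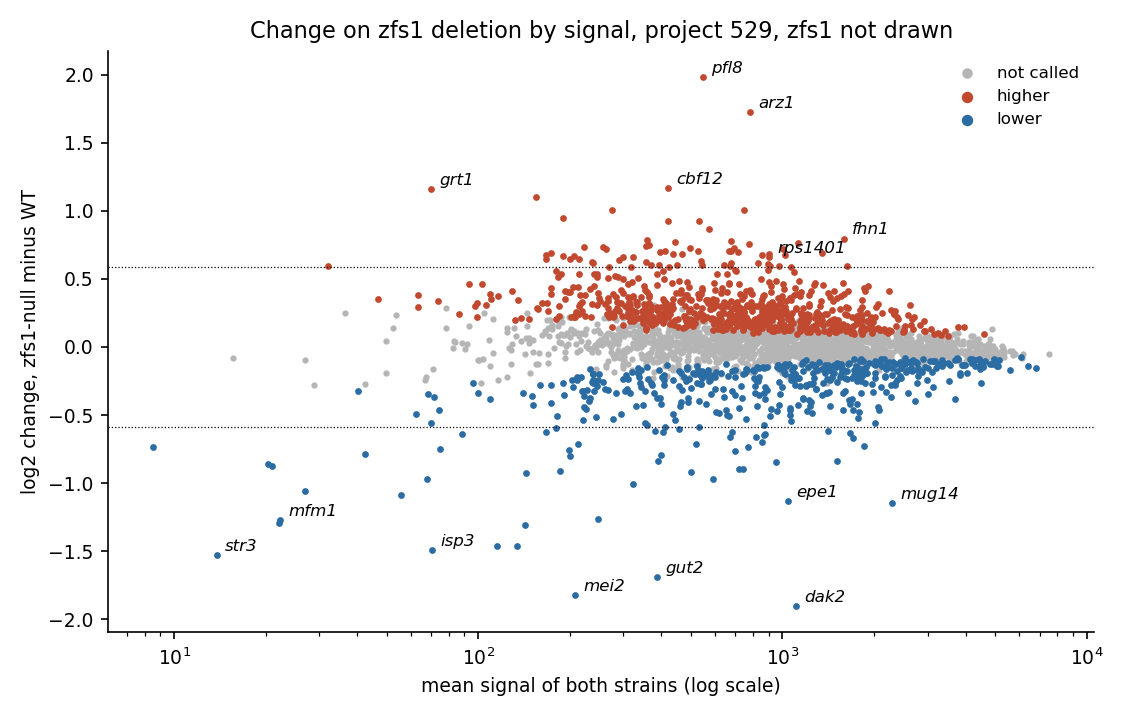
Each point is 1 of 2898 genes, with the mean signal of both strains on a log axis and the log2 change (zfs1-null minus WT) on the vertical axis; red genes were called higher, blue lower and grey not called, and dotted lines mark 1.5-fold. Most called genes lie between the dotted lines, and pfl8 (1.98) and dak2 (-1.90) lie farthest from 0.

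Among the rises, the largest were in a flocculin, a gene named as a Zfs1 target and a flocculation regulator. The pfl8 signal (SPAC1F8.06, chromosome I, a flocculin-like cell surface protein that the array's table calls fta5) was 215, 300.1, 236, 284 and 337 on the WT arrays and 872, 1062, 878, 1248 and 1380 on the zfs1-null arrays. That of arz1 (SPCC1494.03, chromosome III, named as a target of Zfs1) was 440.4, 458, 434, 407 and 410.3 on the WT arrays and 1440, 1427, 1415, 1396 and 1404 on the zfs1-null arrays. For cbf12 (SPCC1223.13, chromosome III, a CSL family DNA-binding protein that favours adhesion of cells) it was 268, 263, 237, 282 and 349.5 on the WT arrays and 505, 697, 546, 739 and 656 on the zfs1-null arrays. The strains did not overlap for these genes, which the choice of the largest changes required, and the zfs1-null arrays of arz1 lay closest together. The rise was 3.95-fold for pfl8 (log2 1.98 ± 0.14 SE, adjusted p = 6.2e-08), 3.30-fold for arz1 (log2 1.72 ± 0.04 SE, adjusted p = 1.2e-12) and 2.24-fold for cbf12 (log2 1.16 ± 0.11 SE, adjusted p = 1.3e-06). The gene grt1 (SPBPB8B6.04c), for a transcription factor and near a chromosome end, was at 46.7 ± 5.28 (SD, n = 5) in WT and 104 ± 8.32 (n = 5) without zfs1, a 2.23-fold rise.

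Only 3 of the 11 flocculins and adhesins listed were measured, and all 3 were called higher. Besides pfl8 these were map4, the adhesin of P cells, at 0.52 (153 ± 17.4 (SD, n = 5) in WT and 219 ± 27.0 (n = 5) without zfs1), and mam3, the adhesin of M cells, at 0.22. The WT and zfs1-null values of mam3 overlapped, and with quantile normalization mam3 was not called (0.14, adjusted p = 0.065). In projects 488 and 582 only pfl8 of the 3 was called. There map4 was at 0.27 and -0.25, and mam3 at 0.13 and -0.11. The map4 effect differed from that in project 582 by 0.76 (adjusted p = 0.0023). Among 12 measured flocculation regulators 7 rose and none fell, and their median was 0.17 against 0.03 over all genes. With array medians set equal 5 rose and 1 fell, and with quantile normalization 5 rose and none fell. After cbf12 the largest were yox1 (0.68), a repressor of the G1/S programme, and mbx2 (0.67), a MADS-box activator of flocculin genes. The mbx2 signal was 969, 714, 834, 819 and 697 on the WT arrays and 1395, 1171, 1476, 1236 and 1143 on the zfs1-null arrays. Its change was -0.07 in project 488 and 1.15 in project 582, and its difference from project 488 was 0.74 (adjusted p = 0.0053). The listed regulators adn2 (0.12) and sre2 (-0.12) were not called, while adn3 (0.28) and tup11 (0.22), a corepressor, rose.

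Genes of DNA damage tolerance and of stalled replication forks made up the next group of large rises. The rev3 signal (SPAC688.10, the catalytic subunit of DNA polymerase zeta) was 112, 101, 96.7, 112 and 108 on the WT arrays and 226, 220.3, 211, 228 and 249 on the zfs1-null arrays. That of mus7 (SPAC6B12.02c, a replication repair protein) was 186, 175, 177, 209 and 219 on the WT arrays and 319.8, 376, 361, 407 and 486 on the zfs1-null arrays. For mus81 (SPCC4G3.05c, the catalytic subunit of a structure-specific endonuclease) it was 399, 389, 429, 341 and 367 on the WT arrays and 702, 686, 839.8, 704 and 728 on the zfs1-null arrays. Every zfs1-null value of these genes lay above every WT value. Fold changes were 2.14 for rev3 (log2 1.10 ± 0.07 SE, adjusted p = 2.1e-08), 2.00 for mus7 (log2 1.00 ± 0.10 SE, adjusted p = 1.9e-06) and 1.90 for mus81 (log2 0.93 ± 0.07 SE, adjusted p = 1.1e-07). The partner subunits rose as well: rev7, the other subunit of polymerase zeta, by 0.65, and eme1, the partner of Mus81, by 0.50. Of 40 measured genes for replication and DNA repair, 14 (35%) rose and 6 (15%) fell, against 25.7% and 16.5% over all genes. Their median was 0.05, against 0.03 over all genes. Other rises were in the checkpoint mediator crb2 (0.60), the checkpoint kinase chk1 (0.38), the structural chromosome protein smc6 (0.50) and eso1 (0.43), a translesion polymerase. The translesion polymerase gene rev1 went the other way (-0.51), and the mismatch repair gene msh3, outside that list, fell by 0.47. The count of repair genes that fell grew to 10 with array medians set equal and to 13 with quantile normalization, while 12 and 13 rose.

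The remaining large rises came from genes of mixed function. The Mediator complex, which links transcription factors to RNA polymerase II, had its kinase srb10 at 137 ± 23.6 (SD, n = 5) in WT and 262 ± 24.5 (n = 5) without zfs1 (log2 0.94) and its tail subunit med15 at 339.7 ± 25.4 (SD, n = 5) in WT and 579.7 ± 13.4 (n = 5) without zfs1 (log2 0.77). Of 18 measured Mediator genes 7 (38.9%) rose, among them med10 (0.38) and med11 (0.36), and 1 (5.56%) fell, srb4 (-0.36). The shares over all genes were 25.7% and 16.5%. With array medians set equal 5 rose and 2 fell, and with quantile normalization 4 and 2. The oxidation resistance gene oxr1 had signals of 432, 549.9, 580.4, 553 and 537 on the WT arrays and 993, 1051, 1085, 1097 and 1067 on the zfs1-null arrays. It rose 2.00-fold (log2 1.00 ± 0.07 SE, adjusted p = 5.6e-08). The G protein beta subunit genes moved apart, gnr1 rising by 0.93 and git5 falling by 0.59, while git11, the gamma subunit that works with Git5 in glucose sensing, rose by 0.70. Further rises were 0.87 for the oligopeptide transporter isp4, 0.80 for fhn1, 0.79 for mac1, a membrane protein of the cell tips, and 0.78 for spo12.

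**Figure D2:**
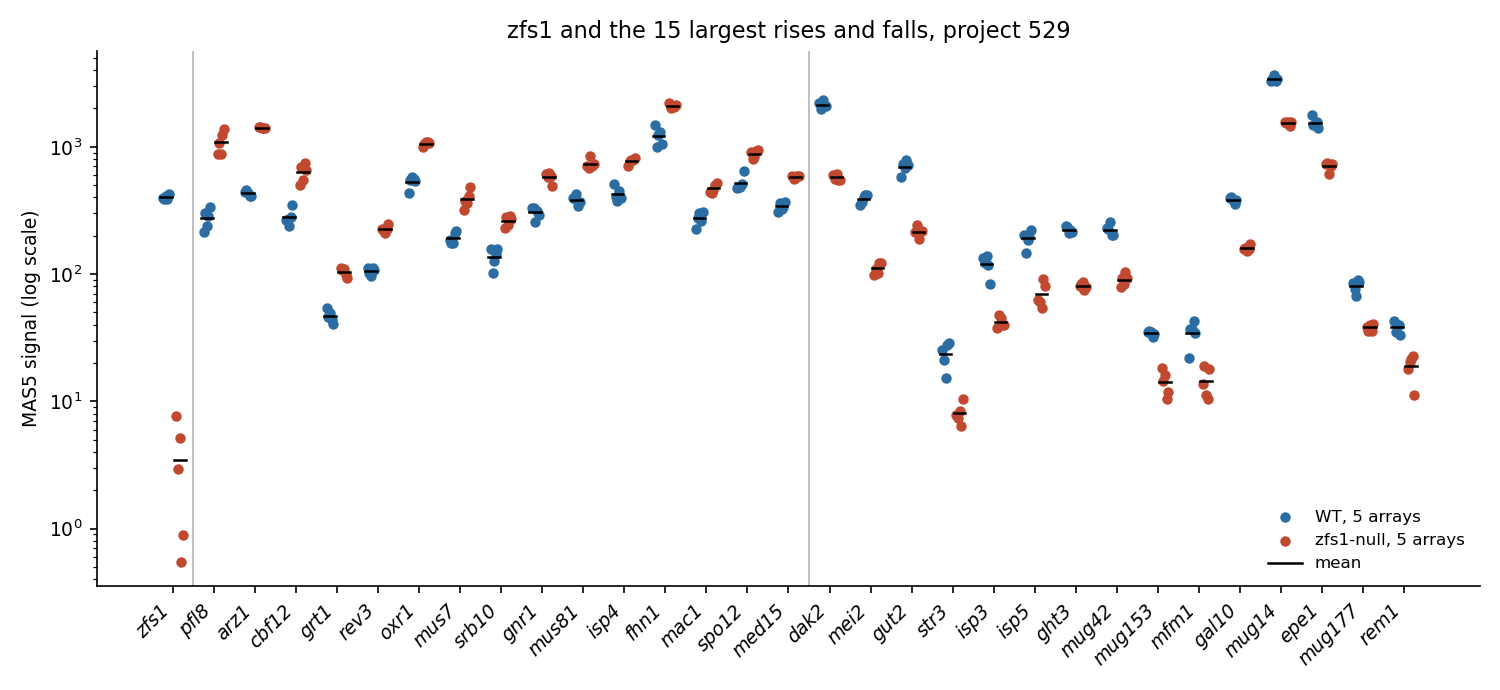
Signals on each of the 5 WT (blue) and 5 zfs1-null (red) arrays are drawn on a log axis for zfs1, the 15 largest rises and the 15 largest falls; bars are means. Genes whose strains overlapped could not enter the choice, and the zfs1-null values of zfs1 lie between 0.55 and 7.67.

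The largest falls were led by genes for the use of glycerol, galactose and other carbon sources. The dak2 signal (SPAC977.16c, a dihydroxyacetone kinase) was 2210, 1972, 2314, 2136 and 2089 on the WT arrays and 597, 559, 616, 546 and 551 on the zfs1-null arrays. That of gut2 (SPCC1223.03c, the mitochondrial glycerol-3-phosphate dehydrogenase) was 577, 732, 675, 780.2 and 722 on the WT arrays and 212, 242, 187, 219 and 216 on the zfs1-null arrays. For ght3 (SPAC1F8.01, a hexose transporter) it was 238, 232, 211, 222 and 213 on the WT arrays and 80.4, 83.2, 87.3, 74.7 and 79.3 on the zfs1-null arrays. In these genes every WT array lay above every zfs1-null array, and the strains stood farthest apart in dak2. The falls were 3.74-fold for dak2 (log2 -1.90 ± 0.05 SE, adjusted p = 1.2e-12), 3.23-fold for gut2 (log2 -1.69 ± 0.08 SE, adjusted p = 1.4e-09) and 2.76-fold for ght3 (log2 -1.46 ± 0.07 SE, adjusted p = 7.4e-10). The neighbouring galactose genes gal10 (-1.26), gal1 (-0.46) and gal7 (-0.40) all fell, gal10 from 382 ± 20.3 (SD, n = 5) in WT to 159 ± 7.91 (n = 5) without zfs1.

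Of 19 measured genes known or named for repression by glucose, 13 fell and 3 rose, with a median of -0.46. Gluconeogenesis was represented by fbp1, fructose-1,6-bisphosphatase, at -0.97, and glycerol use by gld1, a glycerol dehydrogenase, at -0.90. The exceptions that rose were mel1, an alpha-galactosidase (0.38), scr1, the repressor of these genes (0.30), and the enolase eno102 (0.20). The counts were 13 and 3 under the other scalings too. Medians of this list were -0.55 in project 488 and -0.47 in project 582. Genes of glycolysis moved little: of 12 measured, 4 fell and 1 rose, and the largest fall was -0.13 in tpi1, triose phosphate isomerase. The citrate synthase gene cit1 (-0.52) and oac1 (-0.46), the mitochondrial oxaloacetate carrier, were among the small falls with the smallest p.

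Some genes of mating and meiosis were also among the largest falls. Mei2 is an RNA-binding protein that starts meiosis, and the mei2 signal (SPAC27D7.03c) was 346, 367, 405, 418 and 419 on the WT arrays and 98.0, 110.2, 102, 122 and 122 on the zfs1-null arrays. Its fall was 3.53-fold (log2 -1.82 ± 0.08 SE, adjusted p = 7.2e-10). The meiotic cyclin rem1 fell from 38.3 ± 4.03 (SD, n = 5) on the WT arrays to 18.8 ± 4.63 (n = 5) without zfs1, the spore wall protein isp3 from 119 ± 21.4 (SD, n = 5) in WT to 41.9 ± 4.29 (n = 5) without zfs1, and mfm1, which encodes a precursor of the M-factor pheromone, from 34.6 ± 7.62 (SD, n = 5) in WT to 14.4 ± 3.80 (n = 5) without zfs1. These are dim genes, and 2 of the falls shrank when signals were forced onto a common distribution: with quantile normalization mfm1 was at -0.53 (adjusted p = 0.113) and rem1 at -0.42 (adjusted p = 0.046). Another mfm1 probe set, dimmer still, read -1.95, and near-identical M-factor genes may share probes. The other precursors were at -0.71 for mfm3 and -0.14 for mfm2, both called lower.

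Among 22 measured pheromone and mating genes 12 (54.5%) fell and 3 (13.6%) rose, against 16.5% and 25.7% over all genes. Their median was -0.20. Among the falls were the karyogamy gene tht1 (-0.92), the fusion genes prm1 (-0.77), dni1 (-0.59) and dni2 (-0.44), and the formin fus1 (-0.45), while cfr1, also a cell fusion gene, was not called (0.15). The rises were rgs1, a brake on pheromone signalling (0.53), the protease sxa1 (0.39) and mam1, the exporter of M-factor (0.32). The mam1 call was lost without WT replicate 3 or 4 or zfs1-null replicate 1 or 3, where its adjusted p lay between 0.051 and 0.066. In project 582 mam1 was called lower (-0.51, adjusted p = 0.0033), and in project 488 it was at -0.04. The mam1 effect differed from that in project 582 by 0.83 (adjusted p = 0.0010). Among 19 regulators of sexual differentiation 8 fell and 2 rose. Besides mei2, the falls included rsv2 (-0.91), a transcription factor of spore formation, and ste4 (-0.64), byr1 (-0.38), byr2 (-0.21) and ras1 (-0.20) of the pheromone kinase cascade. The kinase gene spk1 of the same cascade (0.03), gpa1 of pheromone signalling (0.02) and the master regulator ste11 (-0.03) were not called. The transcription factor esc1 rose by 0.75, and nrd1, an RNA-binding protein that represses Ste11 targets, by 0.28.

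Of 19 genes for meiotic recombination and cohesion 5 (26.3%) fell and 2 (10.5%) rose, against 16.5% and 25.7% over all genes. The other 12 were not called, and the median was -0.08, or -0.02 with quantile normalization. Behind rem1 the falls were in rec10 (-0.51), a linear element protein, rec12 (-0.49), which makes meiotic breaks, dmc1 (-0.43) and meu13 (-0.22). Of 91 measured genes named mug, for meiotically upregulated, 30 (33.0%) fell and 14 (15.4%) rose, against 16.5% and 25.7% over all genes. Of 18 measured genes named meu, also for meiotic expression, 8 (44.4%) rose and 6 (33.3%) fell, with a median of 0.12. With array medians set equal 5 of them rose and 7 fell. Of 17 genes named spo or spn 4 rose and 5 fell. The mug42 signal was 231, 224, 256, 202 and 202 on the WT arrays and 78.8, 92.5, 83.2, 103 and 93.2 on the zfs1-null arrays. The adducin-like mug14 was at 3411 ± 144 (SD, n = 5) in WT and 1541 ± 50.2 (n = 5) without zfs1 (log2 -1.15 ± 0.04 SE, adjusted p = 1.4e-11). The falls of mug153 (-1.29) and mug177 (-1.08) concern dimmer probe sets, and that of mug153 was -0.57 with quantile normalization.

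Markers of the mating types, zygotes and spores were read for the cells that each culture may have held. All 7 measured M cell markers, 5 P cell markers and 8 zygote or spore markers lay above background on every array. So did every measured S. pombe gene but zfs1, so this cannot tell which cells were present. Mating-type locus genes were not among the genes measured. Summed signals of the M markers were 4749 to 4905 in WT and 4434 to 5169 in the zfs1-null strain, and those of the P markers 3282 to 3662 and 3638 to 3908. Among the M markers 4 of 7 were called lower and 2 higher, and among the P markers 2 of 5 higher and none lower. These counts depended on the scaling. With array medians set equal, 3 P markers were lower and 2 higher, and the M counts stayed the same. With quantile normalization 3 M markers were lower and none higher, and the P counts stayed the same. A sum leans on its brighter probe sets, and the falls of mfm1 (-1.27) and mfm3 (-0.71) weigh little in it. For zygote and spore markers the sums were 3266 to 3829 in WT and 3048 to 3317 in the zfs1-null strain, with 5 of 8 called lower and 1 higher, spo6. None was at 0, as with every other gene measured. In these bulk samples fewer cells of a type and less RNA per cell cannot be told apart, and the part of cell mixture in the mating and meiotic genes was not tested.

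Iron uptake genes split in 2 directions. Among 11 measured, 6 (55%) fell and 4 (36%) rose, against 16.5% and 25.7% over all genes. Those that fell carry iron into the cell or make siderophores. The fip1 signal, for the iron permease, was 95.8, 101, 85.0, 92.4 and 100.4 on the WT arrays and 53.2, 50.0, 56.0, 47.6 and 36.8 on the zfs1-null arrays. Its partner oxidase fio1 was at -0.79, the ferric reductase frp1 at -0.71, and the siderophore synthesis genes sib1 and sib2 at -0.60 and -0.49. The dim transporter gene str3 went from 23.6 ± 5.54 (SD, n = 5) in WT to 8.08 ± 1.54 (n = 5) without zfs1 (log2 -1.53 ± 0.18 SE, adjusted p = 1.2e-05), and was not called with quantile normalization (-0.40, adjusted p = 0.154). Those that rose were the iron-sensing repressors fep1 (0.29) and php4 (0.23), the vacuolar transporter abc3 (0.24) and str2 (0.26). The rises were 2 of 11 with array medians set equal and 1 with quantile normalization, and fep1 and str2 were not among them. The median of this list was -0.49 here, 0.03 in project 488 and -0.30 in project 582. In those projects 4 and 3 of the 11 were called. The fio1 change was 0.03 in project 488 and -0.43 in project 582, and its difference from project 488 was -0.82 (adjusted p = 0.011). Of 16 measured iron-using proteins 5 (31.25%) fell and 2 (12.5%) rose, led by hem13 (-0.30) of haem synthesis.

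Most of the core stress genes fell. Of 24 measured, 18 fell and none rose, and the median change was -0.26. The pyp2 signal, for a phosphatase that acts on the stress kinase Sty1, was 502, 544, 465, 507 and 589.6 on the WT arrays and 277, 293, 329, 306 and 253 on the zfs1-null arrays. Others were the glutathione transferase gst2 (-0.74), the catalase ctt1 (-0.61), the trehalase ntp1 (-0.47), the small heat shock protein hsp16 (-0.39) and the transcription factor atf1 (-0.24). The counts were 18 and 16 lower, and 0 higher, under the other scalings. Among 16 genes of the Sty1 pathway itself 4 (25%) fell and 3 (18.75%) rose, against 16.5% and 25.7% over all genes. The sty1 kinase gene was not called (-0.01), srk1, a kinase that Sty1 regulates, fell by 0.51, and the upstream kinases wis1 (0.27), win1 (0.16) and mak1 (0.38) rose, though win1 was not called under the other scalings. Of 15 heat shock and chaperonin genes 10 fell, ssa1 most (-0.43), and none rose. Here the other projects lay on the other side of 0, with chaperone medians of 0.08 and 0.09 against -0.11, and the core stress medians there were nearer 0, -0.10 and -0.03.

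Nutrient genes were mixed. Of 18 measured genes for nitrogen starvation and amino acid transport, 8 fell and 7 rose. The amino acid permease isp5 fell 2.76-fold, from 191 ± 28.0 (SD, n = 5) on the WT arrays to 69.8 ± 15.9 (n = 5) without zfs1, while the oligopeptide transporter isp4 rose 1.82-fold. The isp4 signal was 508, 405, 373, 451 and 393 on the WT arrays and 709, 777, 781, 784 and 810.5 on the zfs1-null arrays. The ammonium transporters amt1 (-0.42) and amt2 (-0.23) fell and amt3 (0.38) rose. Among phosphate, zinc and thiamine genes, the zinc-responsive adh4 (-0.66) and zrt1 (-0.46) fell, and the thiamine transporter thi9 (0.60) and the polyphosphate gene vtc4 (0.56) rose.

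More of the cell cycle genes rose than fell, mostly by less than 1.5-fold. Mitosis and cytokinesis had 27 measured genes, of which 21 (77.8%) rose, against 25.7% over all genes, and none fell. Their median change was 0.24. The slp1 signal, for an activator of the anaphase-promoting complex, was 878, 707, 802, 779 and 748 on the WT arrays and 1295, 1245, 1258, 1311 and 1329 on the zfs1-null arrays. The contractile ring gene cdc15 was at 0.54, the Aurora kinase gene ark1 at 0.54, the kinesin klp6 at 0.53, the Polo kinase plo1 at 0.30, cdc25 at 0.27 and its opponent wee1 at 0.23. The number that rose was 14 both with array medians set equal and with quantile normalization, and none fell in either. Medians of this list were 0.04 in project 488 and 0.13 in project 582, where 4 and 2 of the 27 were called. With quantile normalization they were 0.05 and 0.18, beside 0.18 in project 529. Of 18 G1/S genes 10 rose and 1 fell, res1 (-0.21). The rises were led by the cohesin rad21 (0.70), the cyclin cig2 (0.69), yox1 (0.68) and the replication licensing factor cdc18 (0.66). The cig2 signal was 1148, 1095, 1068, 1001 and 987 on the WT arrays and 1709, 1752, 1720, 1690 and 1685 on the zfs1-null arrays. The G1/S median was 0.20 here, 0.02 in project 488 and -0.02 in project 582. With quantile normalization these became 0.19, 0.06 and 0.03. In projects 488 and 582, 4 and 2 of the 18 G1/S genes were called, and the zfs1 effect differed from project 529 for 9 and 6.

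All 6 measured MCM genes, which encode the replicative helicase, were called higher, from 0.18 for mcm2 to 0.43 for mcm5; with quantile normalization mcm2 was not (0.11, adjusted p = 0.067). Of the origin recognition genes orc5 was called (0.30). The 12 MCM and origin recognition genes had a median of 0.19 here, -0.01 in project 488 and 0.01 in project 582. In those projects none of the 12 was called. Histone genes were called higher in 5 of 10 cases and lower in none, hht3 with 0.45 and htb1 with 0.30, though near-identical histone genes may share probes. For histones 3 were higher and 1 lower with array medians set equal. Nuclear pore genes rose in 10 of 20 cases, and in 7 under either other scaling. The 2 that fell, nup131 (-0.49) and nup120 (-0.44), both encode outer ring components. Kinetochore and centromere genes were called higher in 9 (26.5%) and lower in 5 (14.7%) of 34 cases, close to the shares over all genes. Here the fall of cnp3, the centromere protein C gene, was the largest (-0.85, from 1274 ± 96.9 (SD, n = 5) in WT to 707 ± 31.3 (n = 5) without zfs1), and ask1 (0.63) and spc24 (0.51) rose.

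Most measured genes for separating daughter cells rose. The adg2 signal was 187, 169, 178, 165 and 165 on the WT arrays and 293, 278, 303, 275 and 289 on the zfs1-null arrays. The glucanase eng1 was at 0.59 and adg3 at 0.45. Of 5 measured genes 4 were called higher, against 3 with array medians set equal. Among 31 cell wall genes 8 (25.8%) rose and 5 (16.1%) fell, close to the 25.7% and 16.5% over all genes. The rises included mkh1, the top kinase of the cell integrity pathway (0.67), rgf3, an activator of Rho1 (0.39), and the glucan synthase ags1 (0.25), and the falls mok13 (-0.39), mok12 (-0.23) and bgs2 (-0.19).

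**Figure D3:**
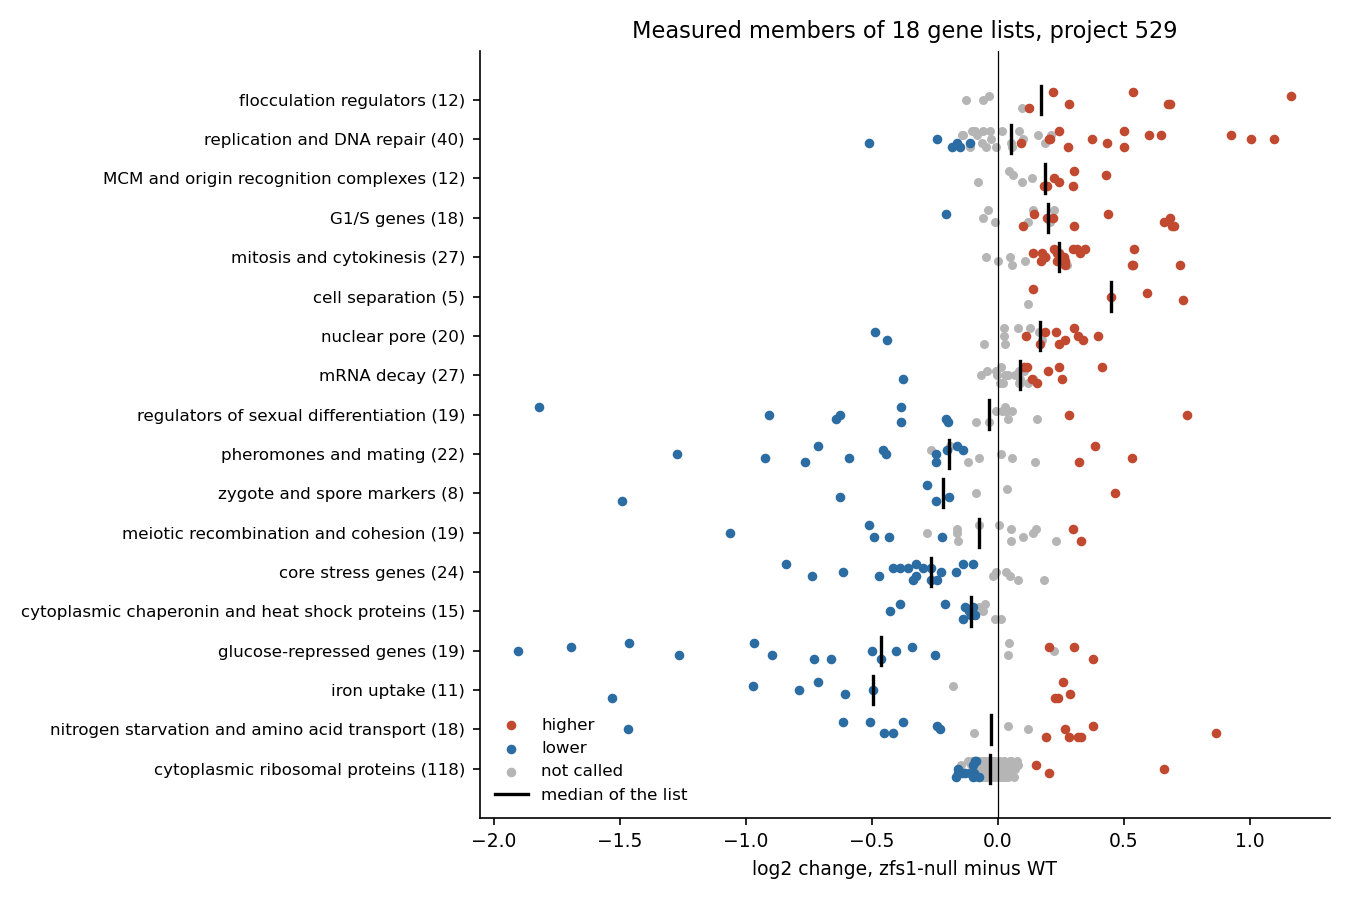
Each point is a measured member of 1 of 18 gene lists, placed by its log2 change (zfs1-null minus WT); the number measured stands in parentheses, red was called higher, blue lower, grey not called, and black bars are list medians. Mitosis and cytokinesis has a median of 0.24, and glucose-repressed genes -0.46 and iron uptake -0.49 lie on the other side of 0.

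Genes for the machinery of mRNA decay changed by small amounts. Of 27 measured genes 8 (29.6%) rose, close to the 25.7% over all genes, and 1 (3.70%) fell, against 16.5%. Largest among them were pop2, a deadenylase gene (0.41), the exonuclease exo2 (0.25) and the decapping enzyme dcp2 (0.20), while upf3 of nonsense-mediated decay fell (-0.38). With array medians set equal 3 rose and 2 fell. Of 15 RNA-binding regulators 5 (33.3%) rose and 3 (20%) fell, mei2 most. The rises included msa1 (0.63), a repressor of sexual differentiation, and csx1 (0.39). The kinase pef1 (0.43) and its cyclins psl1 (0.69) and clg1 (0.19) rose, though clg1 was not called under the other scalings (0.14 and 0.12), and the cyclin gene pas1 was not called (0.01). Of 118 cytoplasmic ribosomal protein genes 3 rose and 12 fell, with a median of -0.03. With array medians set equal 2 rose and 39 fell, and with quantile normalization 10 rose and 3 fell, at a median of 0.02, so the scaling sets the direction of this list. The rise of rps1401, 656, 663, 856, 734 and 668 on the WT arrays and 1113, 1216, 1039, 928 and 1384 on the zfs1-null arrays, stood apart at 0.66.

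Small changes are shown through the 16 genes with the smallest p, a choice that itself favours little spread and strains that do not overlap. The rises under 1.5-fold with the smallest p included atg1, the autophagy kinase. Its signal was 584, 588, 551, 558 and 577 on the WT arrays and 891, 848, 867, 826 and 805 on the zfs1-null arrays. The histone gene hht3 had 1573, 1640, 1705, 1670 and 1606 on the WT arrays and 2224, 2156, 2318, 2278 and 2192 on the zfs1-null arrays, and the Mediator subunit rox3 728, 779, 774, 764 and 782 on the WT arrays and 1094, 1037, 1097, 1052 and 1038 on the zfs1-null arrays. In these genes the lowest zfs1-null value exceeded the highest WT value by more than the spread of either strain. Log2 changes were 0.57 ± 0.04 SE for atg1, 0.45 ± 0.04 for hht3, 0.47 ± 0.04 for rox3 and 0.41 ± 0.03 for stg1, a transgelin-like actin regulator. The other 4 were tco1 (0.55), eaf7 of a histone acetyltransferase complex (0.47), the ubiquitin hydrolase ubp16 (0.54) and spo6 (0.47).

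Among the small falls, the msh3 signal was 2126, 2078, 2120, 2109 and 2097 on the WT arrays and 1451, 1486, 1514, 1523 and 1605 on the zfs1-null arrays. That of pex7, a receptor for import into peroxisomes, was 3012, 3149, 3249, 3176 and 3085 on the WT arrays and 2444, 2447, 2250, 2414 and 2376 on the zfs1-null arrays. For gal1, galactokinase, it was 1310, 1292, 1222, 1208 and 1203 on the WT arrays and 892, 902, 926, 908 and 894 on the zfs1-null arrays. The WT arrays of msh3 stayed within 2078 to 2126, and every zfs1-null array of these genes lay below every WT array. Log2 changes were -0.47 ± 0.03 SE for msh3, -0.39 ± 0.03 for pex7 and -0.46 ± 0.04 for gal1. Arginine synthesis gene arg4 (-0.56), nup120 (-0.44), cit1 (-0.52), oac1 (-0.46) and hsp16 (-0.39) completed this set. Adjusted p-values of the 16 genes were at most 1.3e-06, and their fold changes lay between 1.31 and 1.48.

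**Figure D4:**
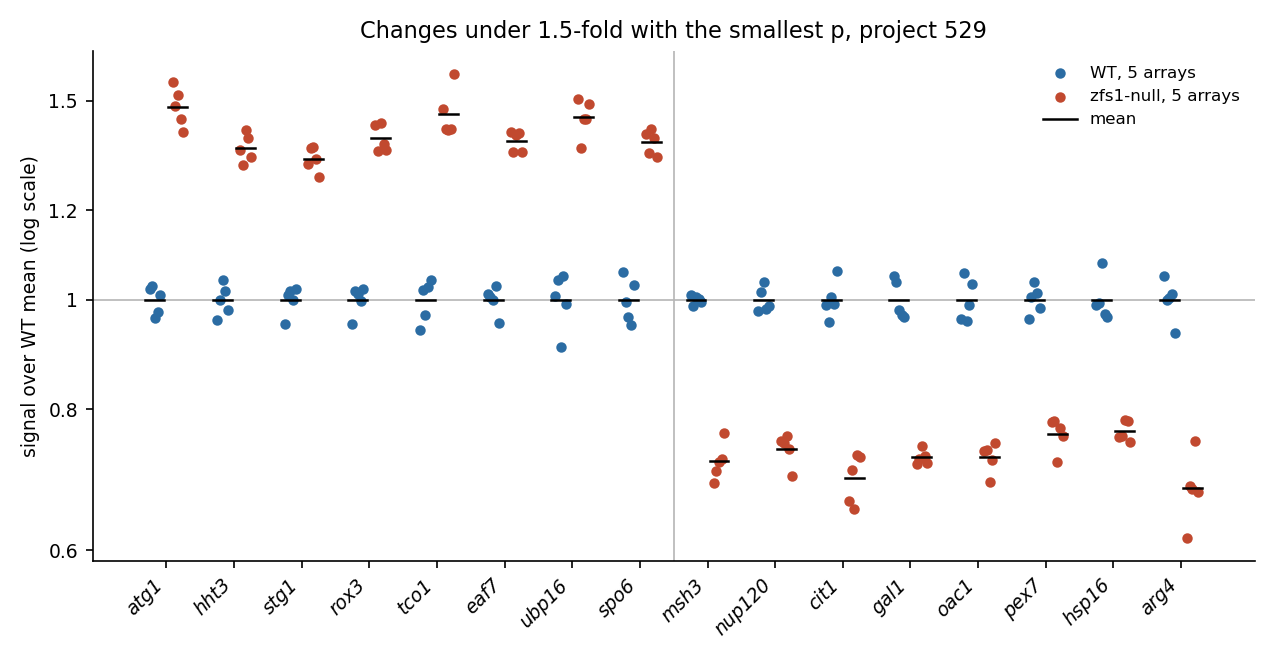
Signals on each array, divided by the WT mean of the gene, are drawn on a log axis for the 8 rises and 8 falls under 1.5-fold with the smallest p; blue is WT, red zfs1-null, and bars are means of 5 arrays. All 16 genes had strains that did not overlap, with changes of 1.31- to 1.48-fold.

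How small a change can be read depended on scaling and on the probes. Of 667 called genes that changed by less than 1.2-fold, 420 (63.0%) were called with the same sign when array medians were set equal, and 431 (64.6%) with quantile normalization. Of 555 that changed by 1.2-fold or more these were 547 (98.6%) and 532 (95.9%). Control probe sets read several stretches of the same transcript. For srb4 the stretches agreed, at -0.37, -0.43 and -0.45 from 3′ to middle to 5′, beside -0.36 from its own probe set. Those of the actin gene act1 were 0.01, 0.06 and 0.16, of rip1 0.03, 0.13 and 0.23, and of ura4 -0.05, 0.03 and 0.16. No such rise towards the 5′ end was seen in the TFIID control, at 0.04, 0.06 and 0.00, or in the last control transcript, at -0.06, -0.07 and -0.02. For gpd3, a glyceraldehyde phosphate dehydrogenase gene, they ran the other way, with -0.03 at the 3′ end, where the probe set is one that other transcripts may share, and -0.59 at the 5′ end. The ratio of 3′ to 5′ signal was 2.95 to 3.45 in WT and 2.47 to 3.26 in the zfs1-null strain for act1. In the same order it was 2.67 to 3.49 and 2.47 to 2.50 for rip1, and 2.03 to 2.26 and 2.02 to 2.37 for TFIID. For ura4 it was 2.44 to 2.70 and 1.78 to 2.46, and for srb4 0.726 to 0.918 and 0.682 to 1.015. The last control transcript had 1.67 to 2.22 and 1.76 to 1.92. For gpd3 it was 2.19 to 3.23 and 3.78 to 4.49. The strains did not overlap for gpd3, higher without zfs1, or for rip1, lower without zfs1. Spiked hybridization controls were lower in the zfs1-null strain by 0.07 on average over 27 probe sets, which ran from -0.18 to 0.02. The part of these differences in the small changes was not tested.

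Direction was then read in projects 488 and 582, which share no array with project 529. Among the 15 largest rises, 14 had the same sign in project 488 and 14 in project 582, and 12 were also called there in each. Among the 15 largest falls these were 14 and 15, with 14 called in each. The log2 changes of arz1 were 1.85 in project 488 and 1.83 in project 582, beside 1.72 here. For mei2 they were -2.43 and -1.47 beside -1.82, and for rev3 0.75 and 0.81 beside 1.10. The exceptions were isp4 (-0.16 in project 488), gnr1 (-0.05 in project 582) and epe1 (0.04 in project 488), a JmjC protein that opposes heterochromatin. The epe1 signal in project 529 was 1762, 1484, 1520, 1567 and 1398 on the WT arrays and 732, 741, 615, 704 and 733 on the zfs1-null arrays. Its effect differed from that in project 488 by -1.17 (adjusted p = 7.6e-07).

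Over all 1222 called genes, 911 (74.6%) had the same sign in project 488, 910 (74.5%) in project 582 and 768 (62.9%) in both. For the 1676 genes not called, 655 (39.1%) had the same sign in both. The share was higher for larger changes. It was 43.6% of 163 called genes under 1.1-fold, 54.4% of 504 between 1.1- and 1.2-fold, 73.2% of 432 between 1.2- and 1.5-fold, 85.0% of 100 between 1.5- and 2-fold and 95.7% of 23 at 2-fold or more. The share under 1.1-fold depended on direction and scaling: it was 55.6% for rises and 31.7% for falls, and over both 26.8% with array medians set equal, below the 39.7% of genes not called there, and 53.8% with quantile normalization. Genes are not independent replicates, and these shares carry no test. All 8 small rises with the smallest p had the same sign in both projects. Of the 8 small falls, 7 had it in project 488 and 8 in project 582. Fewer were also called there with that sign, 4 and 4 of the small rises and 4 and 3 of the small falls. The msh3 change in project 582 was -0.004, so its sign there carries little. The zfs1 effect differed from at least 1 other project for 6 of these rises and 7 of these falls. Among the 15 largest rises and 15 largest falls it did so for 6 and 8.

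Shifts that depend on brightness touch these shares. In project 529 the median log2 change was 0.07 in each of the 3 dimmest of 5 equal groups of genes and -0.03 in the brightest group. In the other projects it ran the other way, from -0.08 to 0.09 in project 488 and from -0.10 to 0.10 in project 582. With quantile normalization the medians of project 529 lay between 0.00 and 0.01. Ribosomal protein genes, which are bright, had medians of 0.18 in project 488 and 0.17 in project 582 against -0.03. With quantile normalization these became 0.07 and 0.02 against 0.02.

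**Figure D5:**
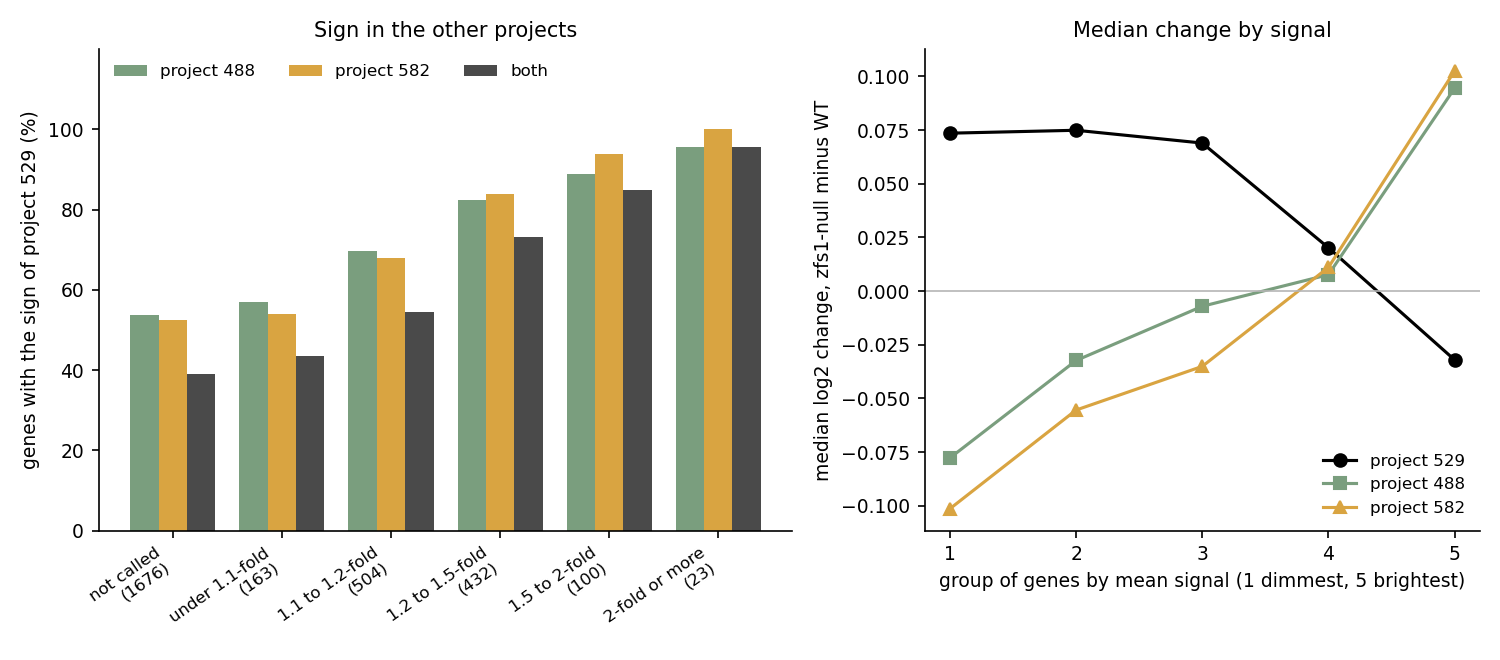
Left, bars give the percentage of genes, grouped by call and size of change in project 529 with their number in parentheses, that had the same sign in project 488, in project 582 or in both; right, the median log2 change is drawn for 5 equal groups of genes by mean signal in each project. Sharing in both rises from 39.1% of genes not called to 95.7% of those at 2-fold or more, and project 529 slopes opposite to the other projects.

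The difference between projects was tested in a model of all 22 WT and zfs1-null arrays. The zfs1 effect differed from that of project 488 for 368 genes (12.7%), 201 more positive and 167 more negative in project 529, and from that of project 582 for 445 genes (15.4%), 273 and 172. Both differences were called with the same sign for 145 genes (5.00%), of which 101 were also called within project 529. Both differences use the same 10 arrays of project 529, so this overlap is given as the set from which genes were named and not as a result. With quantile normalization the counts were 165 and 168 in place of 368 and 445. Of the ribosomal protein genes, 49 were more negative than in project 488 and 40 than in project 582, which quantile normalization reduced to 7 and 0.

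The 8 genes named from this set are given with the settings they held under. In adg2 the log2 change was -0.41 in project 488 and -0.12 in project 582, beside 0.74 here, and the differences were 1.15 (adjusted p = 7.6e-07) and 0.86 (adjusted p = 4.1e-05). The F-box protein gene pof1 was at -0.51 and -0.32 beside 0.58, with differences of 1.09 (adjusted p = 5.6e-05) and 0.91 (adjusted p = 5.5e-04). For adg2 and pof1 both differences were also called with each array left out in turn and under the other scalings. The glutathione transporter gene pgt1 (-0.17 and -0.48 beside 0.62) and gut2 (-1.09 and -0.58 beside -1.69) each lost the difference from project 488 without a single array of that project, zfs1-null replicate 3 (0.63, adjusted p = 0.051) and zfs1-null replicate 1 (-0.49, adjusted p = 0.058). The cell separation list as a whole had a median of 0.45 here, -0.32 in project 488 and 0.07 in project 582, with 3 of 5 differences from project 488 called.

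The other 4 of these genes differed from project 488 with each array left out and under the other scalings, and less securely from project 582. Iron uptake genes were 2 of them. The fip1 log2 change was -0.12 in project 488 and -0.45 in project 582 beside -0.97, and that of frp1 0.17 and -0.30 beside -0.71. The mel1 changes were -1.50 and -0.15 beside 0.38, and those of nup120 0.17 and -0.19 beside -0.44. Differences from project 582 were -0.53 (adjusted p = 0.032) for fip1, -0.41 (adjusted p = 0.031) for frp1, 0.53 (adjusted p = 0.030) for mel1 and -0.25 (adjusted p = 0.035) for nup120. Each missed the threshold with some single arrays left out, at adjusted p-values up to 0.067, 0.075, 0.104 and 0.163, where that of nup120 came down to -0.15. Quantile normalization also ended the calls of mel1 (0.26, adjusted p = 0.374) and nup120 (-0.08, adjusted p = 0.620), and equal array medians that of mel1 (0.44, adjusted p = 0.054).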

How the data were processed

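The deposited table holds an intensity for each probe set on each array, made with MAS5 per the submitters' processing notes and not log-transformed. No source used here gives the MAS5 version, scaling target, detection calls, scan dates or array build. After trimming 2% at each end, the mean over all probe sets was 499.9 on each of the 28 arrays, so a change shared by most transcripts cannot be seen. Of 10928 probe sets, 2917 named 1 S. pombe gene in the array's table, with 113 symbols updated from the annotation of assembly ASM294v3. A further 5390 probe sets were not listed in that table, and any S. pombe genes read only by them were not tested. The brightest probe set was kept for the 14 genes that had several, leaving 2899 genes.

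Log2 signals were fitted with limma 3.58.1 in R 4.3.3 (lmFit and eBayes with an intensity trend), two-sided, with Benjamini-Hochberg adjustment over 2899 genes. The strain comparison used 10 arrays, and the differences between projects 22 arrays and 6 group means. Calls were made at an adjusted p below 0.05. The p-values measure the spread between these samples, since no label says that they are separate cultures and the number of arrays sets their precision.

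The arrays, 53 gene lists and tests were chosen with earlier results of these data known, so lists are given as counts and medians without a test. In 15 places a list entry was removed after values were seen, because its name belongs to a different gene in fission yeast. Named genes were zfs1 and its neighbours, the 15 largest rises and falls whose strains do not overlap, the 8 of each direction under 1.5-fold with the smallest p, leading called members of each list, and 4 of each direction that differed from both other projects. Further list members were named after their values were seen. The script was tested on simulated data.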

Additional observations from a re-analysis of the deposited data

Results flagged for a closer look

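In 11 of 266 groups of 5 arrays examined for the named genes, 1 array stood far from the other 4, and chance alone flags about 1 in 20 such groups. The arrays concerned were WT replicate 3 in 5 cases, WT replicate 1 in 2 and 4 other arrays once each. WT replicate 3 was highest in mug14 (3656, the others 3303 to 3394), hsp16 (4544, the others 4071 to 4189) and tif212 (4393, the others 3989 to 4056), and lowest in hxk1 (2436, the others 2657 to 2733) and pop2 (1075, the others 1313 to 1357). WT replicate 1 was highest in map4 (183, the others 139 to 149) and SPBC1105.01 (1283, the others 1032 to 1075), and WT replicate 5 in spo12 (640.4, the others 475 to 511). In the zfs1-null strain replicate 3 was highest in mus81 (840, the others 686 to 728), replicate 4 lowest in mug14 (1453, the others 1547 to 1579) and replicate 5 lowest in git5 (301, the others 450 to 505).

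The test of the difference called both differences with the same sign for 145 genes, and the 8 named from these are given here. Both differences use the arrays of project 529. More positive here, relative to projects 488 and 582, were adg2 (1.15 and 0.86), mel1 (1.88 and 0.53), pof1 (1.09 and 0.91) and pgt1 (0.79 and 1.10). More negative were gut2 (-0.60 and -1.11), nup120 (-0.61 and -0.25), fip1 (-0.85 and -0.53) and frp1 (-0.88 and -0.41). Adjusted p-values ran from 4.6e-08 for mel1 against project 488 to 0.035 for nup120 against project 582.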

How the results depend on the processing

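The strain comparison was refitted under 20 alternative settings, and no called gene named by the rule changed direction. With quantile normalization 3 of the 1222 called genes other than zfs1 lost or changed their sign: mug96 (0.95, adjusted p = 0.0074, from -0.73), mug146 (0.16, adjusted p = 0.451, from -0.86) and rpl3201, which came to 0 from -0.07. They are named for this after their values were seen. Leaving out each array in turn gave 1085 to 1217 called genes in place of 1223, 659 to 743 higher, 419 to 474 lower, 60 to 68 at least 1.5-fold higher and 54 to 57 at least 1.5-fold lower. With array medians set equal the counts were 491 higher and 739 lower, which follows from the shift of the median by -0.06. Of 129 called named genes, 11 lost their call under some setting, 4 of them with an array left out. Quantile normalization ended the calls of str3 (-0.40), mfm1 (-0.53), mam3 (0.14), mam1 (0.25), ura2 (0.18), clg1 (0.12), qcr2 (0.23) and meu15 (0.00), and the cause was not tested. Equal medians ended those of clg1 (0.14), ura2 (0.17) and vma8 (0.14), and leaving out single arrays those of mam1, hxk1, arg1 and ura2. The difference from project 488 was called for 172 to 470 genes with an array left out and 165 with quantile normalization, and that from project 582 for 188 to 545 and 168. Without single arrays the count was 172 (project 488 WT replicate 2), 197 (zfs1-null replicate 1) and 238 (WT replicate 1), and 188 (project 582 zfs1-null replicate 3) and 269 (zfs1-null replicate 2). Same-numbered samples deviated together with correlations of -0.06 to 0.14, above 0.1 in 2 of the 5 pairs. In 4 of 5 the correlation exceeded every one between different numbers (highest 0.0836), a hint from the data that no label bears on, and the numbers were not used to pair samples. With a replicate block 1259 genes were called. Signals dim enough to approach background limit what can be read of genes such as str3 and mfm1.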

Other observations

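Further gene families were read outside the main groups. Of 16 measured wtf genes, a family of meiotic drivers and their relatives, 7 were called lower and none higher, with a median of -0.20, and wtf3 was at -0.75, with signals of 96.1, 93.6, 83.9, 111 and 101 on the WT arrays and 49.3, 51.5, 64.0, 59.6 and 65.2 on the zfs1-null arrays. Members of the wtf family resemble each other, so probe sets may share transcripts. Of 19 autophagy genes 6 (31.6%) fell, atg6 most (-0.31), and 2 (10.5%) rose, atg1 (0.57) and atg2 (0.19). With array medians set equal 9 fell and 1 rose. Biosynthetic genes often used as auxotrophic markers fell in 9 of 23 cases, led by his2 (-0.33), and rose in 2, against 14 and none with array medians set equal. Among the 59 of 2899 genes nearest the chromosome ends 18 (30.5%) rose and 17 (28.8%) fell. Over all genes these shares were 25.7% and 16.5%. With array medians set equal 13 of the 59 rose and 22 fell. This set holds pfl8, grt1, dak2, str3, isp3, isp5, ght3, gal10 and mug14 of the 30 largest changes.

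Genes of basic cell machinery mostly showed fewer calls than the 42.2% over all genes. The proteasome had 2 higher and none lower of 24, ribosome biogenesis 2 and 2 of 28, translation initiation factors none and 3 of 16, vacuolar protein sorting 7 and none of 33, and splicing factors 11 and 3 of 50. These balances depend on the scaling: with array medians set equal they were 1 higher and 5 lower for the proteasome, 2 and 7 for ribosome biogenesis, none and 8 for initiation factors, 3 and 5 for vacuolar protein sorting, and 5 and 7 for splicing. RNA polymerase subunits had 10 higher and 1 lower of 29 (5 and 1 with array medians set equal), with rpc2 (0.46) and rpc53 (0.40) of RNA polymerase III at the top. Among ubiquitin genes the conjugating enzyme ubc6 stood out at 0.74, with signals of 240.5, 267, 279, 295 and 298 on the WT arrays and 435, 447, 479, 472 and 469 on the zfs1-null arrays.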
